A study of Mus musculus with 6 samples.

Results

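The Dlk1-Dio3 domain is an imprinted stretch of mouse chromosome 12, and 6 of its genes, Dlk1, Meg3, Rtl1, Rian, Mirg and Dio3, were followed in R1 mouse embryonic stem cells given a vitamin C derivative. Every row of the array table whose annotation lists one of these genes was taken, which gave 16 of 41345 features. Of these, 4 list a single gene (Dlk1, Meg3, Rian and Dio3) and 12 list a member together with other genes. Rtl1 is on 6 rows, Meg3 and Mirg on 3 each, Rian on 2, and Dlk1 and Dio3 on 1 each, and Rtl1 and Mirg have no row of their own.

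Both groups were R1 cells, an established male embryonic stem cell line from the inner cell mass of a cross of 129X1 and 129S1 mice, held on gelatin in fetal bovine serum with LIF, the cytokine that keeps mouse embryonic stem cells self-renewing. The AA2G group (3 arrays) had 0.74 mM (250 ug/ml) AA2G, ascorbic acid 2-glucose in the labels, for 3 days. AA2G is a form of vitamin C that lasts in culture medium, and cells release ascorbate from it. The untreated group (3 arrays) had the same culture without it. All 6 arrays come from 1 line, and the 3 samples of a group are called independent replicates.

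Imprinted genes are transcribed mainly from the chromosome inherited from one parent. In this domain the protein-coding genes Dlk1, Rtl1 and Dio3 are transcribed from the paternal chromosome, and the long non-coding RNAs Meg3, Rian and Mirg, with the many microRNAs and snoRNAs lying inside them, from the maternal one. In reprogrammed stem cells the maternal RNAs are known to be lost when DNA methylation spreads over the Meg3 promoter, and vitamin C is known to protect the domain from that silencing. The arrays measured RNA and not methylation, and they cannot tell the maternal from the paternal transcript.

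Values are log2 expression values, 1 unit being a doubling, and changes are AA2G minus untreated with the fitted standard error (SE) and its 95% interval. A feature was called at a Benjamini-Hochberg adjusted p under 0.05 in limma, a linear model that shares its variance estimate across features. Array medians lay between 5.06 and 5.10. In this fit 143 features were higher and 36 lower of 23521 that list 1 gene, so the background of calls was 0.761% (0.608% higher and 0.153% lower), and with all 41345 features in the fit it was 0.317%. The smallest change among the 179 calls was 0.41. Nanog, a transcription factor of embryonic stem cells and a check of the cell type, was at 11.17 ± 0.04 with AA2G and 11.34 ± 0.03 in untreated cells (SD, n = 3 each).

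None of the 16 rows of the 6 genes was called by limma (0 higher and 0 lower), where the background was 0.317% in the fit of all features and 0.761% (0.608% higher) in that of features with 1 gene. Before adjustment 0 of them had a p under 0.05, against 7.9% of all features, and the groups did not overlap on 1 of them, against 13.9% of all features. The changes ran from -0.18 to 0.12, with 8 positive and 8 negative in the fit of all features and a median of -0.00, against -0.00 over all features. The 95% interval of every one of the 16 rows lay within 0.5 of zero on the log2 scale. That held for 74.4% of all features in the same fit and for 88.4% of the features that list 1 gene. At the outer bounds, a fold of 0.708 at the lowest and 1.33 at the highest lay within an interval. In a bulk sample fewer cells with a transcript and less of it per cell cannot be told apart. Of the 16 rows, 12 had a mean above 4.99, the percentile 40 of the features that list 1 gene. That level is not a detection limit, and 7 of 8 muscle and adrenal markers were above it too. Without detection calls, a mean above it does not show that a transcript was present. Whether a dimmer row stood above background is not known.

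**Figure D1:**
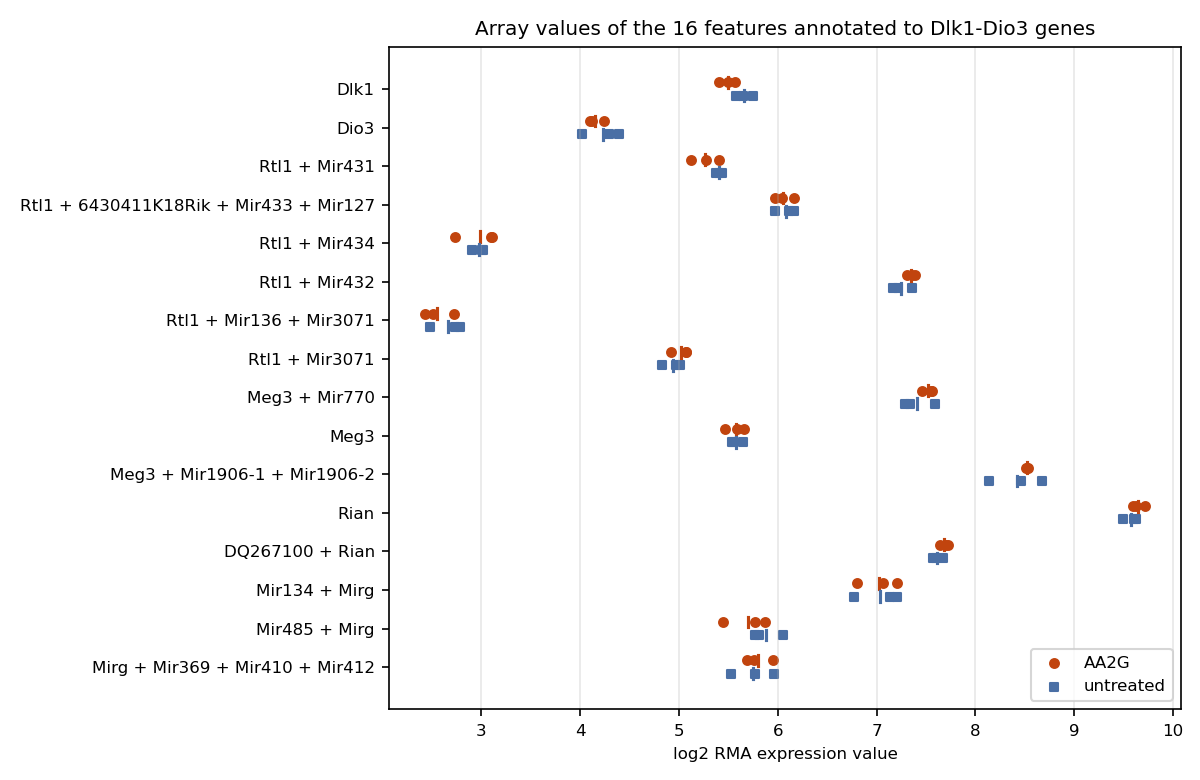
Log2 RMA values of the 16 features that list a domain gene, on the 3 AA2G arrays (circles) and the 3 untreated arrays (squares), with a vertical bar at each group mean. The circles and squares overlap on every row but Dlk1, whose AA2G arrays reach 5.57 and whose untreated arrays start at 5.58.

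Dlk1 (Entrez Gene 13386) encodes a transmembrane protein with EGF-like repeats that is related to the Notch ligands and holds back adipocyte differentiation. Its feature read 5.50, 5.57 and 5.41 with AA2G, against 5.58, 5.75 and 5.65 in untreated cells. All 3 AA2G arrays were below all 3 untreated arrays, though the nearest of them, at 5.57 with AA2G and 5.58 in untreated cells, all but met. The change was -0.17 ± 0.08 (SE, limma adjusted p = 0.559, unadjusted p = 0.0694), with a 95% interval from -0.35 to 0.02. Groups that do not overlap with AA2G the lower made up 8.48% of the features that list 1 gene, and Dlk1 was the only one of the 16 rows with such a split.

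Dio3 (107585), at the far end of the domain, encodes the deiodinase that inactivates thyroid hormone. It read 4.12, 4.24 and 4.10 with AA2G and 4.29, 4.02 and 4.39 in untreated cells. The groups overlapped, and the lowest of all 6 arrays was an untreated one. The change was -0.08 ± 0.11 (SE, limma adjusted p = 0.877), with a 95% interval from -0.32 to 0.16. At a mean of 4.16 ± 0.08 with AA2G and 4.23 ± 0.19 in untreated cells (SD, n = 3 each), Dio3 was among the 4 rows below the level of 4.99.

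Rtl1 (353326), a gene derived from a retrotransposon and needed for fetal blood vessels of the placenta, shares each of its 6 rows with microRNA genes that lie within it. The rows list 7 microRNA genes, and a row's value cannot be given to any 1 of the genes it lists. The microRNAs of Mir431, Mir433, Mir127, Mir434 and Mir136 are known to come from the maternal RNA on the strand opposite to Rtl1, to match Rtl1 exactly and to direct its cleavage, and 1 mature form of each is shown for that reason. The others are Mir432, on the plus strand in RefSeq, and Mir3071, on the minus strand. The sequences are those of RefSeq (GRCm38.p6), all 5 from the plus strand of chromosome 12, and the capitals mark the seed, bases 2 to 8, which guides target choice.
mmu-miR-431-5p: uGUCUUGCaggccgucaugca
mmu-miR-433-3p: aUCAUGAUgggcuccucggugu
mmu-miR-127-3p: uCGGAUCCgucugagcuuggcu
mmu-miR-434-3p: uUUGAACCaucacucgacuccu
mmu-miR-136-5p: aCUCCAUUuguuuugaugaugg

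The row with Mir433, Mir127 and 6430411K18Rik read 6.04, 5.97 and 6.16 with AA2G and 5.97, 6.16 and 6.11 in untreated cells, so both groups spanned the same range. The row with Mir431 read 5.41, 5.12 and 5.27 with AA2G and 5.44, 5.37 and 5.41 in untreated cells. There the AA2G arrays scattered more widely and reached lower, but 1 of them lay inside the untreated range. The change was -0.14 ± 0.09 (SE, limma adjusted p = 0.795), with a 95% interval from -0.36 to 0.08.

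The row with Mir432 leaned the other way, at 7.36, 7.39 and 7.31 with AA2G and 7.17, 7.22 and 7.36 in untreated cells. Its change was 0.10 ± 0.08 (SE, limma adjusted p = 0.838). The row with Mir3071 alone was at 5.02 ± 0.09 with AA2G and 4.94 ± 0.09 in untreated cells (SD, n = 3 each). The last 2 rows were dim in both groups: that with Mir434 was at 2.98 ± 0.21 with AA2G and 2.98 ± 0.07 in untreated cells, and that with Mir136 and Mir3071 at 2.55 ± 0.15 with AA2G and 2.66 ± 0.16 in untreated cells. Over the 6 Rtl1 rows 3 changes were positive and 3 negative, and the groups overlapped on each. By the array's numbering 5 of these 6 rows lie among features of plus-strand genes (44 plus and 0 minus among the features numbered nearest), the strand of the microRNAs and not of Rtl1. The row with Mir3071 alone lies among features of minus-strand genes (5 plus and 62 minus). Whether the 5 rows read Rtl1 or the RNA opposite to it was not tested.

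Meg3 (17263), also known as Gtl2, is the maternal long non-coding RNA whose promoter, when methylated on the maternal chromosome, is known to leave the maternal RNAs silent. That promoter is shown because it is the element the silencing acts on: the 250 bases before the RefSeq start, chr12:109540746-109540995 (GRCm38.p6, plus strand), with each CpG, the site of DNA methylation, in capitals.
Meg3: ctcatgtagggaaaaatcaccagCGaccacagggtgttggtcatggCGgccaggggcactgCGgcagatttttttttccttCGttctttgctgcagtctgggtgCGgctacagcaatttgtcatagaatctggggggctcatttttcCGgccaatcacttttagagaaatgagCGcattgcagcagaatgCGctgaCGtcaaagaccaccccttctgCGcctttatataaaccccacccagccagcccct

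It holds 10 CpG, against a median of 6 over 32851 RefSeq promoter windows of this length, counting CG on the printed strand. The cyclic AMP response element TGACGTCA, its own reverse complement, stands once in it, 57 bases before the start, and was found in 1.55% of those windows. A match is only a description of the letters. RefSeq windows at the starts of Rian, Mirg and Dio3 held 0, 10 and 21 CpG, and the Dlk1 window, at a start within the gene, held 8.

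The row that lists Meg3 with Mir770, a microRNA gene inside it, read 7.56, 7.46 and 7.55 with AA2G and 7.59, 7.29 and 7.34 in untreated cells. The AA2G arrays lay close together and within the untreated range. The change was 0.12 ± 0.10 (SE, limma adjusted p = 0.849), the highest of the 16, with a 95% interval from -0.12 to 0.36.

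The other 2 Meg3 rows need care. The row that lists Meg3 alone read 5.47, 5.66 and 5.59 with AA2G and 5.55, 5.54 and 5.65 in untreated cells, a change of -0.01 ± 0.08 (SE, limma adjusted p = 0.988). The array numbers its features in runs: of the 100 features numbered nearest to the Dlk1 row, 42 belonged to genes on the plus strand and 1 to a gene on the minus strand in the RefSeq promoter table. Around the row of Meg3 alone the counts were 4 plus and 62 minus, although RefSeq puts Meg3 on the plus strand. Of the other domain features, 6 were numbered in the same minus-strand run, among them second rows of Mir299a, Mir380, Mir376a and Mir409, which RefSeq puts on the plus strand. Whether the Meg3 row reads the strand opposite to Meg3 was not tested.

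The row of Meg3 with Mir1906-1 and Mir1906-2 is numbered among genes of another chromosome. Of the 101 features nearest to it 98 belonged to genes of chromosome X, where RefSeq places Mir1906-2, and 0 to genes of chromosome 12. It read 8.51, 8.53 and 8.52 with AA2G and 8.68, 8.14 and 8.46 in untreated cells. The AA2G arrays lay in the middle of the wider untreated spread, with a change of 0.09 ± 0.14 (SE, limma adjusted p = 0.925). RefSeq gives the same mature sequence for Mir1906-1, on chromosome 12, and Mir1906-2. It is shown, as the copy on chromosome 12, because the row lists both genes, and which of the copies the row reads was not tested.
mmu-miR-1906: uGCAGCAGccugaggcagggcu

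Rian (75745), also called Meg8, is the maternal long non-coding RNA that carries the C/D box snoRNAs, small RNAs that guide RNA modification. Its own feature read 9.72, 9.60 and 9.63 with AA2G and 9.63, 9.50 and 9.61 in untreated cells. The change was 0.07 ± 0.07 (SE, limma adjusted p = 0.841), with a 95% interval from -0.10 to 0.24. The row of Rian with the snoRNA gene DQ267100 gave nearly the same change, 0.08 ± 0.07 (SE, limma adjusted p = 0.865), at 7.69 ± 0.05 with AA2G and 7.61 ± 0.05 in untreated cells (SD, n = 3 each). On both rows all 3 AA2G arrays lay above the untreated mean, but the groups overlapped.

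Mirg (100040724), also called Meg9, is the maternal transcript of the large microRNA cluster near the end of the domain. The row with Mir134 read 7.07, 7.21 and 6.80 with AA2G and 6.77, 7.14 and 7.21 in untreated cells, so each group held 1 low array. The row with Mir485 read 5.45, 5.87 and 5.77 with AA2G and 5.77, 5.81 and 6.05 in untreated cells, a change of -0.18 ± 0.13 (SE, limma adjusted p = 0.833), the lowest of the 16. The row with Mir369, Mir410 and Mir412 stood at 5.80 ± 0.13 with AA2G and 5.75 ± 0.22 in untreated cells (SD, n = 3 each). The groups overlapped on all 3 rows, and their 95% intervals ran from -0.50 at the lowest to 0.36 at the highest.

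**Figure D2:**
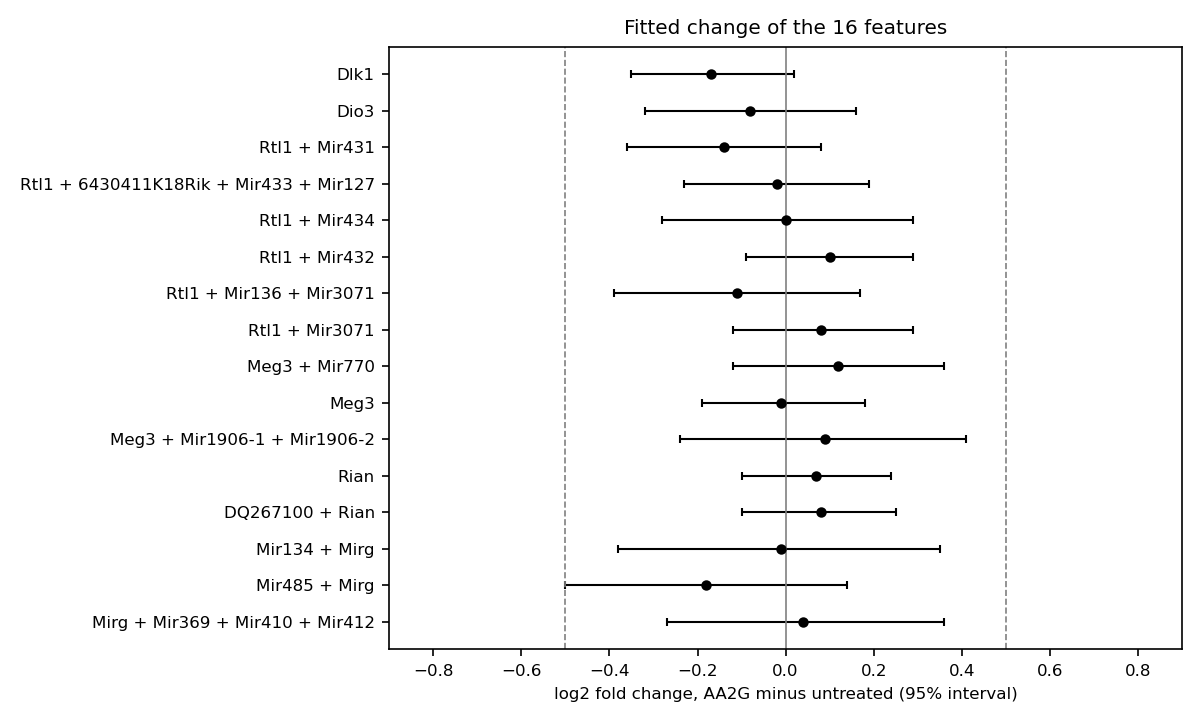
Fitted log2 fold change (AA2G minus untreated, points) with its 95% interval (bars) for each of the 16 features. All intervals include zero and none passes the dashed lines at 0.5 in either direction.

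The rest of the domain was read from the other genes that RefSeq places from Dlk1 to Dio3. Of 103 genes in that stretch, 61 encode microRNAs and 19 snoRNAs. Besides the members, 55 features list 1 of these genes: 47 for microRNAs, 6 for snoRNAs and 2 for long RNAs. A feature on the strand of a microRNA gene reads RNA with the hairpin's sequence, the long host RNA included, and not the mature microRNA. The 47 include the second rows of Mir299a, Mir380, Mir376a and Mir409, numbered in the minus-strand run. Which strand those rows read was not tested.

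None of the 55 was called by limma (0 higher and 0 lower), against the background of 0.761%. A p under 0.05 before adjustment was reached by 4 of the 55, 3 of them with positive values, and by 9.71% of all features with 1 gene. The median change was 0.02, with 35 positive values and 20 negative, beside -0.01 over all features with 1 gene. The groups did not overlap on 2 of the 55 (3.64%), against 15.7% of those tested. Of the 55, 29 had a mean above 4.99.

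**Figure D3:**
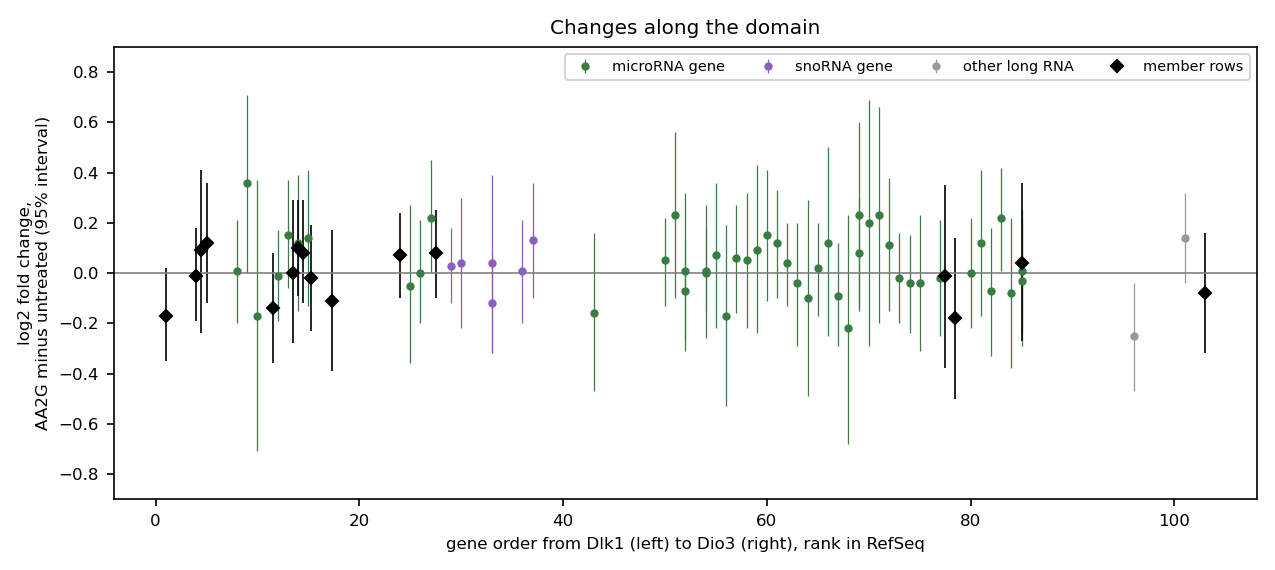
Log2 fold change (AA2G minus untreated) with its 95% interval for the 16 member rows (diamonds) and the 55 other domain features (circles), placed by the rank of their gene from Dlk1 to Dio3 in RefSeq, a row of several domain genes at their mean rank. The row of Meg3 with Mir1906-1 and Mir1906-2 stands at the rank of its chromosome 12 genes, though it is numbered among features of chromosome X. Points lie on both sides of zero along the whole order, between -0.25 and 0.36.

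The brightest other features of the domain were snoRNA genes inside Rian and differed little between groups. AF357425 was at 10.40 ± 0.01 with AA2G and 10.37 ± 0.04 in untreated cells (SD, n = 3 each), a change of 0.03 with a 95% interval from -0.12 to 0.18. AF357355 was at 9.95 ± 0.11 with AA2G and 9.94 ± 0.10 in untreated cells, with an interval from -0.20 to 0.21. The microRNA genes Mir453, Mir673, Mir667 and Mir329 followed, with changes of -0.00, 0.01, 0.02 and 0.05 and limma adjusted p from 0.942 to 0.998. The 6 snoRNA features as a group ran from -0.12 to 0.13.

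The smallest unadjusted p was that of 3110009F21Rik, a long RNA gene between Mirg and Dio3. It read 4.21 ± 0.13 with AA2G and 4.46 ± 0.11 in untreated cells (SD, n = 3 each), a change of -0.25 ± 0.09 (SE, limma adjusted p = 0.409), and its groups did not overlap. All its values lay below the level of 4.99. Dio3os, the antisense RNA of Dio3, was at 6.01 ± 0.10 with AA2G and 5.87 ± 0.05 in untreated cells, a change of 0.14 ± 0.08 (limma adjusted p = 0.653).

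The other 4 of the 6 features with the smallest p were microRNA genes with positive values. Mir377 had a change of 0.22 ± 0.09 (SE, limma adjusted p = 0.468) with groups that did not overlap, Mir370 of 0.22 ± 0.10 (adjusted p = 0.509) and Mir493 of 0.36 ± 0.15 (adjusted p = 0.513), both with overlapping groups. Mir377 and Mir370 lay below the level of 4.99 on every array. Mir665 was at 6.64 ± 0.16 with AA2G and 6.49 ± 0.06 in untreated cells (SD, n = 3 each; limma adjusted p = 0.677). One mature form of each is shown because these had the lowest p among the microRNA genes, none of them past the threshold. Their seeds all differ.
mmu-miR-377-3p: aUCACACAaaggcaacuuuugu
mmu-miR-370-3p: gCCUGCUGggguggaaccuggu
mmu-miR-493-3p: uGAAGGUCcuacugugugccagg
mmu-miR-665-3p: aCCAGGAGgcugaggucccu

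RefSeq gives 105 mature microRNAs of different names for 57 genes on chromosome 12 that the member and domain rows list (mmu-miR-3070-5p comes from 2 genes), and 16 of these share a seed with one of another name, in 8 pairs. Of these pairs 3 are shown as examples of genes of the Mir379 cluster that keep the same seed and differ beyond it.
mmu-miR-379-5p: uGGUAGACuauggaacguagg
mmu-miR-1193-5p: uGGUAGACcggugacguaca
mmu-miR-379-3p: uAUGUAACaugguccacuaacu
mmu-miR-411-3p: uAUGUAACacgguccacuaacc
mmu-miR-376b-5p: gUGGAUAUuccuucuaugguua
mmu-miR-376c-5p: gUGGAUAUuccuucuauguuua

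These genes had no shared direction: the domain table put Mir379 at 0.05, Mir1193 at 0.12, Mir411 at 0.23, Mir376c at 0.12 and Mir376b at -0.22, with limma adjusted p from 0.684 to 0.904 over the 5 genes. Mir411 read 2.49, 2.81 and 2.20 with AA2G and 2.32, 2.22 and 2.28 in untreated cells, below the level of 4.99 on every array. Mir379, Mir376b and Mir376c were below it on every array too. The arrays have no detection calls, so whether values that low stood above background is not known.

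Genes outside the domain gave the frame for these values. The 5 nearest genes with a feature before Dlk1 were Mir345 (0.01), Slc25a47 (0.06), Wars (0.06), Wdr25 (0.04) and Begain (0.24), and the 5 after Dio3 were Ppp2r5c (-0.17), B930059L03Rik (0.17), Dync1h1 (-0.03), 1700001K19Rik (0.19) and Hsp90aa1 (-0.08), all as log2 changes. None of the 10 was called by limma, against the background of 0.761%. Before adjustment 0 had a p under 0.05, against 9.71% of all features with 1 gene. The adjusted p lay between 0.56 and 0.992. Begain, next to Dlk1, was at 4.83 ± 0.15 with AA2G and 4.59 ± 0.19 in untreated cells (SD, n = 3 each), and its groups overlapped.

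**Figure D4:**
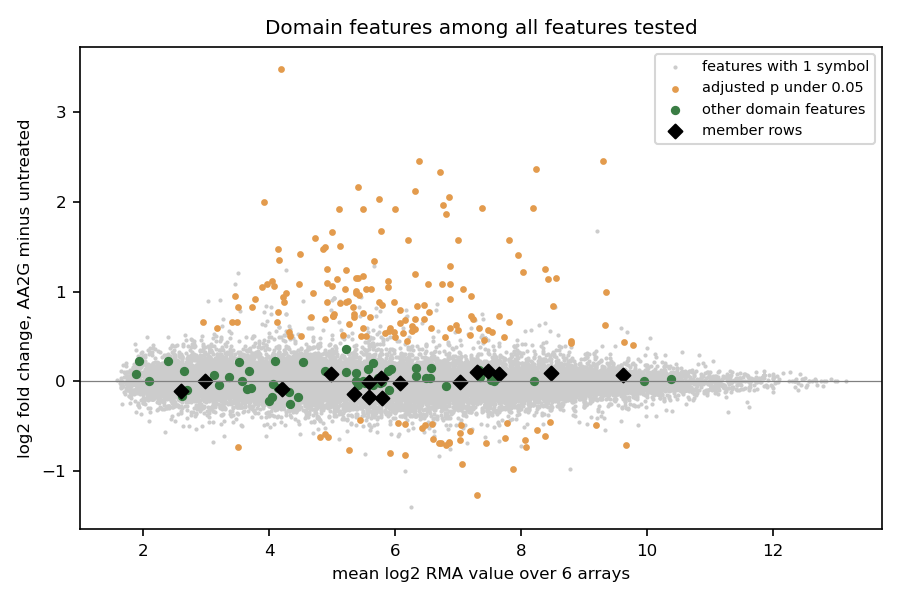
Log2 fold change (AA2G minus untreated) against the mean log2 RMA value over the 6 arrays for the 23521 features that list 1 gene (grey; the 179 called ones in orange), the 55 other domain features (green circles) and the 16 member rows (black diamonds). The member rows lie between -0.18 and 0.12, inside the grey band, while called features start at 0.41 from zero.

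Among 34 measured imprinted genes of other domains, 1 higher gene and 1 lower gene were called by limma, where 0.761% of all features with 1 gene were. Before adjustment a p under 0.05 was found for 2 genes with positive and 10 with negative values, against 9.71% of those features. The groups did not overlap on 3 genes with AA2G the higher and 11 with AA2G the lower, 41.2% of the list against 15.7% of those features. The median was -0.03. Sfmbt2, a Polycomb group gene that is paternally expressed in the placenta, rose by 0.89 ± 0.11 (SE, limma adjusted p = 0.00961), to 5.66 ± 0.14 with AA2G against 4.77 ± 0.16 in untreated cells (SD, n = 3 each). Phlda2, a maternally expressed gene that restrains placental growth, fell by 0.49 with AA2G (limma adjusted p = 0.0279), a call lost in the fit of all features (0.0902) and when any array but untreated replicate 1 was left out (0.0957 to 0.166). Cdkn1c, a maternally expressed inhibitor of the cell cycle, was at -0.61 ± 0.11 (SE, limma adjusted p = 0.051). It passed with array weights (0.0099), the arrays at a common median (0.0418), 1 feature per gene (0.0495), a trended robust prior (0.0294) and brighter features only (0.0288), and without untreated replicate 1 (0.0437). The difference between these genes and the Dlk1-Dio3 genes was not tested.

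Of 23 measured genes that keep or remove methylation and silencing at imprinted regions, 0 were called by limma, against the background of 0.761%. Before adjustment 1 positive and 2 negative values had a p under 0.05, against 9.71% of all features with 1 gene. The median of the list was -0.06. Dnmt3l, a cofactor of the de novo methyltransferases, was at 8.09 ± 0.02 with AA2G and 7.77 ± 0.10 in untreated cells (SD, n = 3 each; limma adjusted p = 0.161). Zfp57, the zinc finger protein that holds methylation at imprinted regions, was at 9.51 ± 0.11 with AA2G and 9.78 ± 0.10 in untreated cells (limma adjusted p = 0.354). Tet1, a 5-methylcytosine oxidase, was at -0.22 ± 0.08 (SE, adjusted p = 0.354). On each of these 3 the groups did not overlap, as on 26.1% of the list (1 gene with AA2G the higher and 5 with AA2G the lower), against 15.7% of all features with 1 gene.

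The lists around the functions of the protein-coding members also had 0 limma calls, against the background of 0.761%. Of 22 Notch pathway genes 2, both with negative values, had a p under 0.05 before adjustment, against 9.71% of all features with 1 gene. The median of the list was -0.08. Jag2, a Notch ligand, was at 6.18 ± 0.10 with AA2G and 6.74 ± 0.16 in untreated cells (SD, n = 3 each; limma adjusted p = 0.064), Numb, a Notch inhibitor, at -0.20 and the ligand Dll3 at -0.24. Jag2 passed with array weights (0.013), with a trended robust prior (0.0345) and with brighter features only (0.0342). Of 10 genes of thyroid hormone handling 1 had a p under 0.05 before adjustment, against the same 9.71%. The median was 0.04, and the values nearest to the threshold were those of the transporter Slc16a10 (0.20, adjusted p = 0.427), Klf9 (-0.08) and the receptor Thra (-0.07).

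Of 8 measured genes of the retrotransposon-derived family of Rtl1, 1 had a positive value and the median was -0.05. Before adjustment 2, both with negative values, had a p under 0.05, against 9.71% of all features with 1 gene. Peg10, another imprinted member of the family, was at 8.30 ± 0.04 with AA2G and 8.61 ± 0.18 in untreated cells (SD, n = 3 each; limma adjusted p = 0.297), Rtl6 at -0.47 ± 0.17 (SE, adjusted p = 0.381) and Rtl9 at -0.13.

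Markers of other cell types were read because Dlk1 and Meg3 are abundant in several differentiated lineages. Of 10 pluripotency genes limma called 1, where the background was 0.761%. That was Fbxo15, a target of Oct4, which rose by 0.63 ± 0.07 (SE, adjusted p = 0.00625), while Klf4 stood at -0.31 (0.127, but 0.0267 with array weights and 0.0348 with a trended robust prior) and Nanog at -0.17 (0.445). Before adjustment 1 positive and 3 negative values of this list had a p under 0.05, against 9.71% of all features with 1 gene. The groups did not overlap on 1 gene with AA2G the higher and 3 with AA2G the lower, 40% of the list against 15.7% of those features. Of 12 primitive endoderm, 10 trophoblast, 8 mesoderm, 9 neuroectoderm, 10 fibroblast and 8 muscle and adrenal markers, 0 were called, and 3 positive and 6 negative values in all had a p under 0.05 before adjustment, where 9.71% of all features with 1 gene had one. Primitive endoderm held 2 of these positive and 2 of these negative values. The groups did not overlap on 50% of its list, against 15.7% of those features. That share was 20% for trophoblast, 0% for mesoderm, 11.1% for neuroectoderm, 20% for fibroblasts and 0% for muscle and adrenal markers. Some of these markers passed in other fits: Lama1 with array weights (limma adjusted p = 0.012), a trended robust prior (0.0336), brighter features only (0.0372) or without untreated replicate 1 (0.0312), Sparc with the first 3 of these (0.0217, 0.0345 and 0.0453), Krt8 with array weights (0.0209) or brighter features only (0.0409), and Krt18 with array weights (0.0331). The mean level of the fibroblast list over its genes ran from 5.71 to 5.78 on the AA2G arrays and from 5.71 to 5.75 on the untreated arrays. It did not overlap between groups for the mesoderm list, at 5.44 to 5.48 with AA2G and 5.52 to 5.56 in untreated cells, or for the pluripotency list, at 9.46 to 9.47 with AA2G and 9.48 to 9.50 in untreated cells. It overlapped for the other 4 marker lists. Outside the marker lists, the mean level of the imprinted genes of other domains did not overlap either. It ran from 6.38 to 6.39 with AA2G and from 6.44 to 6.45 in untreated cells. The family of Rtl1 did not overlap, at 4.88 to 4.94 with AA2G and 4.97 to 5.12 in untreated cells. How often other gene sets split in this way was not measured, so these splits are descriptions only. The part of the marker levels in the values of the domain genes was not tested. Nearest to the threshold were Lama1 (0.50), Sparc (0.34) and Lamb1 (-0.48) of primitive endoderm, Krt8 (-0.35), Krt18 (-0.43) and Ascl2 (0.25) of trophoblast, Mixl1 (-0.23), Mesp1 (-0.11) and Eomes (-0.30) of mesoderm, Sox1 (-0.19), Otx2 (0.23) and Map2 (-0.12) of neuroectoderm, Dcn (-0.27), Col1a1 (0.17) and Vim (0.10) of fibroblasts, and Myh3 (0.37), Star (-0.19) and Des (-0.16) of the last list.

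Across the 6 arrays the features most like Dlk1 were those of Btbd35f5 (r = 0.998), Olfr690 (0.995), Fam83h (0.995), Zbtb8b (0.994) and Them6 (0.992). The brightest Meg3 row, that with Mir1906-1 and Mir1906-2, was most like Sirt5 (0.994), Tmem135 (0.993), Zscan4b (0.991), Bst2 (0.990) and Vmn1r233 (0.990), all of which, like it, were lowest on untreated replicate 2. For the row of Meg3 with Mir770, chosen after its numbering was seen, they were Lzts1 (0.996), Cog5 (0.995), Nmrk1 (0.993), Gins2 (0.992) and Scp2 (0.992). This row and all 5 of these genes were lowest on untreated replicate 2 as well. Both Meg3 rows correlated with each other at r = 0.83, though 0 genes were shared between their nearest 5. All are Pearson correlations over 6 arrays and are descriptions only. Those with the nearest genes were picked as the highest of 23521.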

How the data were processed

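RNA of 6 cultures, 3 with AA2G and 3 untreated, was hybridised to 1 Mouse Gene 2.0 ST array each. The deposited table holds log2 values. Per the submitters’ processing notes, the authors used RMA in Affymetrix Expression Console, a method that corrects the background, applies quantile normalization and summarises probes per feature. The version, the array's build and any filter were not given in the sources used here. The table has no detection calls, quantile normalization hides a change in total RNA, and RMA understates fold changes of dim features. Arrays have no read depth, and precision is limited by their number.

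Of 41345 features, 23521 list 1 gene symbol, 1814 several and 16010 none in the platform annotation. RefSeq (GRCm38.p6) matched 23328 of the 23521 by Entrez Gene identifier and was used for gene order, strand and sequences. The 23521 were fitted by lmFit and eBayes of limma 3.58.1 under R 4.3.3 (two-sided, no covariate, 4 residual degrees of freedom), with Benjamini-Hochberg adjustment at 0.05. Rows of several symbols were read from the same fit of all features. An exact permutation test of 3 against 3 cannot give a p below 0.1. The labels name no batch, and p-values reflect only how far these cultures differ. The fit was also run on simulated data with independent noise on each array. That noise does not copy deviations shared by same-numbered samples, and no result here rests on that run.

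The members and lists were chosen with earlier results of these data known. Named genes are all member rows, the 6 other domain features with the smallest p and the 6 with the highest mean, 5 neighbours on each side, up to 3 genes of each list by p with every call, and the 5 features most like Meg3 and Dlk1. Other genes of the domain were named to follow the printed sequences. Lists use 1 feature per gene, the brightest. Alternatives were repeated quantile normalization, a common median, a replicate block, array weights, a trended robust prior, 1 feature per gene, all features, only features with a mean above 4.99 and leaving out each array.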

Additional observations from a re-analysis of the deposited data

How the results depend on the processing

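Under every alternative run, 0 member rows and 0 other domain features were called. The smallest adjusted p of a member was 0.211, and 203 of 220 member values kept their sign. Many of the 220 could not change sign. A trended robust prior, the replicate block and another choice of fitted features leave the fitted difference as it was. Only repeated normalization, a common median, array weights and leaving out an array could reverse it. With array weights, Mirg with Mir369, Mir410 and Mir412 was at -0.06, Rtl1 with Mir434 at -0.07 (-0.00 with quantile normalization repeated and with a common median), Mir345 at -0.01 and Mir453 at 0.04 (0.00 with quantile normalization repeated). With 1 array left out, ranges were -0.05 to 0.05 for Meg3, -0.05 to 0.21 for Meg3 with Mir1906-1 and Mir1906-2, -0.15 to 0.10 for Mir134 with Mirg, -0.07 to 0.15 for Mirg with Mir369, Mir410 and Mir412, -0.08 to 0.02 for Rtl1 with 6430411K18Rik, Mir433 and Mir127, and -0.06 to 0.13 for Rtl1 with Mir434. Genes outside the 16 rows ranged from -0.04 to 0.07 (AF357355), -0.08 to 0.21 (Bst2), -0.11 to 0.06 (Dync1h1), -0.27 to 0.01 (Map2), -0.03 to 0.15 (Mir329), -0.11 to 0.09 (Mir345), -0.05 to 0.09 (Mir453), -0.02 to 0.07 (Mir667), -0.05 to 0.07 (Mir673), -0.07 to 0.16 (Sirt5), -0.14 to 0.01 (Thra), -0.02 to 0.14 (Tmem135), -0.02 to 0.06 (Vmn1r233), -0.01 to 0.10 (Wars) and -0.11 to 0.37 (Zscan4b). The cause was not tested.

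Calls over the array were 179, but 277 with a trended robust prior, 496 with array weights and 64 to 131 with 1 array left out (89 without AA2G replicate 2, 88 without AA2G replicate 3, 98, 101 and 64 without untreated replicate 1, 2 and 3). Imprinted genes of other domains had 2 calls, 5 with array weights, 4 with brighter features only, 1 with all features, 1 with a replicate block and 1 to 3 with 1 array left out (1 in each case but that of untreated replicate 1). The Notch list had 0, and 1 with a trended robust prior, array weights, a replicate block or brighter features only, which was Jag2. The replicate block left 155 calls over the array and 0 members. Same-numbered samples deviated together at 0.23, 0.22 and 0.02, each above every value for differently numbered ones, which ran from -0.22 to -0.00. Deviations were taken from each group's mean, so positive same-numbered values make the others negative on average by construction. The labels do not say that the numbers are pairs, so the main fit left them out and the block was an alternative. Whether the numbers are pairs was not tested. Under the block the adjusted p was 0.0654 for Phlda2 and 0.0452 for Jag2. The median change of the domain features lay between -0.00 and 0.05 with 1 array left out. Without detection calls, what the member rows could show, the 4 dimmer ones included, is limited by an unknown signal over background.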
